A study of Mus musculus with 17 samples.

Results

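The 90 genes described here encode the nuclear parts of the mitochondrial machinery for oxidative phosphorylation, out of 18193 genes measured in 17 mouse neuroblastomas. They were chosen by name: every gene whose single symbol in the array's annotation starts with Nduf, Cox4 to Cox8, Uqcr or Atp5, or is Sdha, Sdhb, Sdhc or Sdhd. By textbook assignment 74 are general subunits, 8 are complex I assembly factors (Ndufaf genes) and 8 are tissue isoforms or paralogs of complex IV. The general subunits belong to complex I (34), II (4), III (8), IV (11) and V (17). Each gene is represented by the probeset with its highest mean among those that carry a single symbol. Together the genes had 179 such probesets, and 39 genes had only 1.

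All 17 tumors carried the TH-MYCN genotype, a human MYCN transgene driven by the promoter of tyrosine hydroxylase in cells of neural crest origin. By the study's methods the mice were hemizygous on the 129X1/SvJ background and the tumors were abdominal. Each tumor, named mad548 to mad565 after its label, gave total RNA for 1 Affymetrix mouse array, and the labels give no age, sex or weight for a tumor. All tumors form a single group with no normal tissue beside them, so values are compared between tumors and not between conditions. Whole pieces of tumor were measured, so fewer cells of a type and less RNA per cell cannot be told apart.

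Oxidative phosphorylation passes electrons from NADH (complex I, NADH dehydrogenase) and succinate (complex II, succinate dehydrogenase) through complex III (cytochrome bc1) to oxygen at complex IV (cytochrome c oxidase). The proton gradient made on the way drives ATP synthesis by complex V. Most subunits are nuclear-encoded and made in every tissue. A few subunits of complex IV exist in pairs, with a general form and a second form typical of heart and skeletal muscle, brown fat, lung or testis. MYC proteins are known to raise the expression of many genes for mitochondria and ribosomes, and neuroblastomas of this model are driven by MYCN.

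The tumors expressed the neuroblast markers at high values: the mean of the 9 measured genes of that list (among them Hand2, Th and Dbh) lay between 11.80 and 12.35 on the log2 scale. RNA of other tissues stood out in a few of them. A list of 14 skeletal muscle genes averaged 11.94 in mad553, 10.29 in mad550 and 9.63 in mad549, and no more than 6.45 in any other tumor. The mean of 8 brown fat genes was 8.54 in mad548 and 8.47 in mad562, against 6.65 to 7.42 elsewhere. Tumor mad562 also had a liver list mean of 10.31. The cardiac list stayed between 4.75 and 5.29 in every tumor.

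The general subunits were among the brightest genes of the arrays. Within each array the probesets with a single symbol were divided into 4 quartiles by value, where quartile 4 is the brightest. The mean quartile over the tumors was 3.5 or above for 76 of the 90 genes, against 33.4% of all genes. Of the 74 general subunits 70 lay in quartile 4 in every tumor, a property of 28.2% of all genes. All 4 genes of complex II, all 8 of complex III and all 17 of complex V were among them. A quartile also reflects how well a probeset hybridizes, so it orders no gene against another.

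The general subunits outside quartile 4 were Cox7c, Ndufb1, Ndufs5 and Ndufb4. Cox7c, a small subunit of complex IV, had values from 7.18 in mad565 to 8.18 in mad564 (median 7.44, mean quartile 3.0). Ndufb1 and Ndufs5, accessory subunits of complex I, had mean quartiles of 3.0 and 3.12. The probeset of Ndufb4, another accessory subunit, lay between 4.85 and 5.60 (mean quartile 1.71). Further probesets matched a member of the machinery together with another symbol, and these 10 probesets were not used. The complex I subunits Ndufa11 and Ndufs6 were represented by such probesets alone, so they were not analysed here. The same held for the symbols Ndufb4b, Ndufb4c and Ndufs5-ps, whose names derive from Ndufb4 and Ndufs5. The values of Ndufb4 and Ndufs5 come from 1 single-symbol probeset each, so a low value may belong to that probeset. This was not tested. Among the assembly factors, which help to build complex I without staying in it, 3 of 8 lay in quartile 4 throughout. The dimmest of them, Ndufaf7, had a mean quartile of 3.0.

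Differences between tumors were small for the general subunits. Their SD over the 17 tumors ranged from 0.07 to 0.42 on the log2 scale with a median of 0.14, and the median of all genes was 0.19. In the median general subunit the highest and lowest tumors differed 1.45-fold. The 5056 other genes that lay in quartile 4 throughout had a median SD of 0.17, and the 70 general subunits of that kind 0.13. Staying in quartile 4 in every tumor itself favours steady genes. Genes at or above the median value had a median SD of 0.20. None of the 74 reached an SD of 0.5. Over all 90 genes 3 reached that value, against 6.79% of all genes, and all 3 were tissue isoforms.

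**Figure D1:**
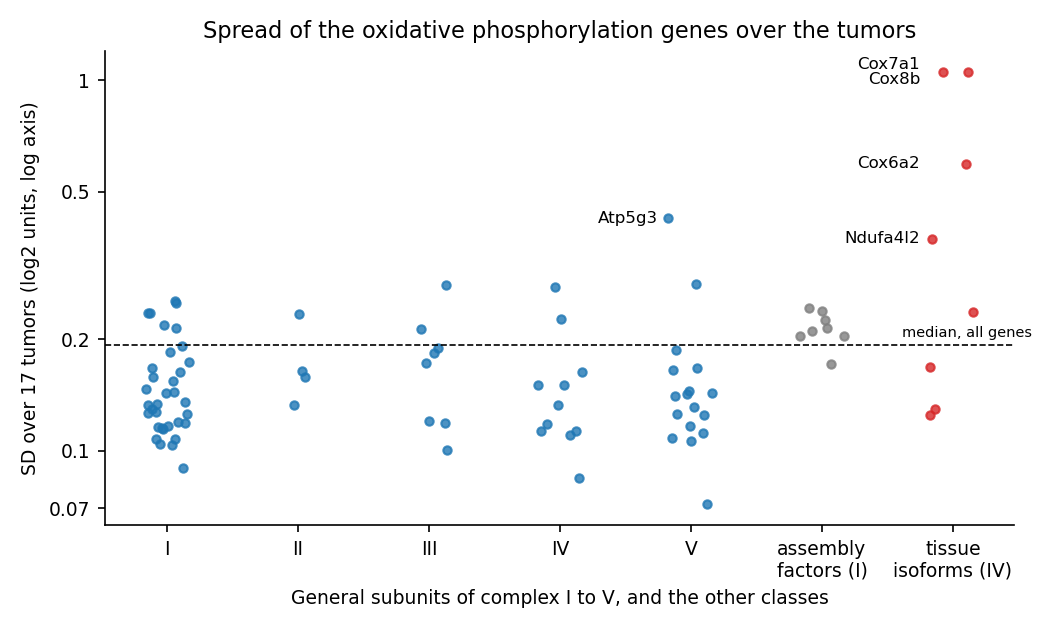
SD over the 17 tumors (log2 units, logarithmic vertical axis) of each of the 90 genes, 1 point per gene, by complex for general subunits (blue), and for assembly factors (grey) and tissue isoforms (red). The general subunits lie between 0.07 and 0.42, with Atp5g3 at the top, while Cox7a1, Cox8b and Cox6a2 lie at 0.60 to 1.05.

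Complex I, which oxidizes NADH, varied little in nearly all of its parts. Ndufv3, an accessory subunit beside the NADH-binding Ndufv1, had the lowest SD (0.09), with values from 12.64 to 12.97. Ndufa2 followed at 0.10. Ndufb10 and Ndufs4, accessory subunits of the membrane arm and of the peripheral arm, had the highest SDs (both 0.25). Ndufb10 ranged from 10.90 in mad560 to 11.77 in mad559 with a median of 11.22. Ndufs4 ranged from 9.97 in mad553 to 11.09 in mad548 with a median of 10.65. The 8 assembly factors lay between SDs of 0.17 and 0.24.

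The 4 genes of complex II, the enzyme shared with the citric acid cycle, were each measured in quartile 4. Sdha, the flavoprotein that oxidizes succinate, ranged from 11.62 in mad553 to 12.27 in mad562 (median 12.02). Sdhb, the iron-sulfur subunit, ranged from 11.76 in mad551 to 12.37 in mad562 (median 12.01). For the membrane anchors, Sdhc ranged from 10.03 in mad551 to 10.88 in mad548 (median 10.37) and Sdhd from 10.83 in mad553 to 11.50 in mad560 (median 11.21). The 4 genes did not share a highest tumor. No tumor lacked any of them: their lowest values were all within quartile 4, and the largest distance between highest and lowest tumor was 0.85 (Sdhc).

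In complex III the small subunit Uqcrb was the steadiest gene (SD 0.10, 14.22 to 14.60). Uqcr10, another small subunit, had the largest SD (0.28), with values from 9.23 in mad560 to 10.28 in mad559 and a median of 9.75. The Rieske iron-sulfur protein Uqcrfs1 and the core proteins Uqcrc1 and Uqcrc2 had SDs of 0.12, 0.18 and 0.12. In complex IV the general forms of the paired subunits were uniform. Cox7a2 had an SD of 0.08, Cox6b1 0.11, Cox7a2l (which takes part in joining complexes III and IV) 0.11, Cox5a 0.12, Cox6a1 0.15 and Cox8a 0.16. Cox4i1, the largest nuclear-encoded subunit of complex IV in its general form, varied more (SD 0.23), from 13.15 in mad559 to 13.89 in mad562 with a median of 13.56.

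Complex V held both the steadiest and the most variable general subunit. Atp5h, part of the peripheral stalk, had an SD of 0.07 and values from 13.25 to 13.53. The catalytic Atp5b and its partner Atp5a1 had SDs of 0.14 and 0.12. Subunit c, which forms the rotating ring in the membrane, is encoded by 3 genes whose mature proteins are the same. Atp5g1 ranged from 10.43 in mad560 to 11.42 in mad548 (median 11.07), and Atp5g2 from 10.99 to 11.53 (median 11.19). Atp5g3 was between 13.41 and 13.93 in 16 tumors and 12.15 in mad554.

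The gap between mad554 and the next lowest tumor, mad548, was 1.27 on the log2 scale for Atp5g3, a 2.40-fold difference. Among the 82 genes of the machinery with a mean at or above the median of all genes, no other had a gap at the lowest tumor of 1 or more, and the next largest was 0.49 (Ndufaf6). Of all 9097 genes above that median 0.396% had such a gap. This threshold was chosen after the values of Atp5g3 were seen. Of these genes 6 had the gap in mad554, namely Atp5g3, Fgf13, Hoxc8, Fam118b, Nfe2l3 and Ptprb. The protein-coding genes next to Atp5g3 in RefSeq's gene order were not low in that tumor. Atf2 on one side had 11.17 in mad554 within a range of 10.82 to 11.30, and Lnpk on the other had 8.09 within 7.51 to 8.37. The other genes for subunit c were not at their extremes there, with 10.80 for Atp5g1 and 11.24 for Atp5g2. Atp5g3 has a single probeset here, so the low value has no second measurement on the array.

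**Figure D2:**
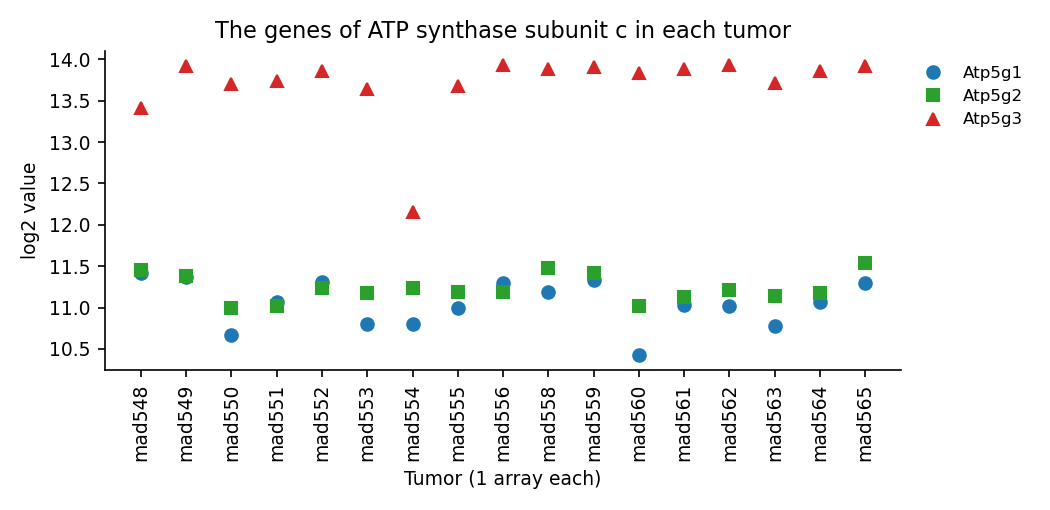
Log2 values of the genes for ATP synthase subunit c in each of the 17 tumors, 1 point per gene and tumor. Atp5g3 drops to 12.15 in mad554 and lies between 13.41 and 13.93 in the others, while Atp5g1 and Atp5g2 show no such drop.

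Small as they were, the differences between tumors ran in parallel. Over the 2701 pairs of general subunits the median Pearson r over the 17 tumors was 0.45, and 91.0% of pairs were above 0. For pairs of other genes in quartile 4 throughout, the median was 0.10 and 61.6% were above 0. These values describe genes on the same arrays and carry no p. Pairs within a complex (median 0.47) were little closer than pairs from different complexes (0.44). Of the 74 genes 63 had an r above 0.5 with the mean of the others. Cox4i1 was the clearest exception at -0.18, followed by Atp5g3 (-0.05) and Cox7c (0.03). Without mad548 and mad562 the median of all pairs was 0.30, against 0.09 for the other bright genes.

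Each general subunit was next expressed as the difference from its own mean, and the differences were averaged in each tumor. This average was highest in mad548 (0.22) and mad562 (0.14), followed by mad565 (0.09). It was lowest in mad553 (-0.15), mad551 (-0.14) and mad550 (-0.12), and the other 11 tumors lay between. The brown fat list was highest in mad548 and mad562, and 2 of the 3 tumors at the bottom carried skeletal muscle RNA. The other genes in quartile 4 also averaged below their own means at the bottom: -0.11 in mad553, -0.06 in mad551 and -0.05 in mad550. As a description, the average of the general subunits had an r of 0.69 with the brown fat list mean over 17 tumors. Without mad548 and mad562 (15 tumors) it was 0.17. With the mean of a list of MYC target genes these values were 0.76 and 0.77. With the mean of the other genes in quartile 4 they were 0.63 and 0.57. A list of cell division genes gave 0.57 and 0.69, and a list of fat cell genes 0.73 and 0.40. Tumor mad562 also had the highest liver list mean (10.31), so brown fat and liver RNA cannot be told apart there. The part of fat, muscle or liver RNA in these averages was not tested. The remaining tumor with muscle RNA, mad549, had an average of 0.05.

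Averages of the complexes moved together, with an r between 0.67 and 0.96 over the 10 pairs of complexes. In mad548 complex III was raised most (0.30) and complex IV least (0.14), and in mad562 complex II was raised most (0.27) and complex V least (0.10). The average of complex II was apart in mad560 (0.09) and mad563 (0.08), where those of complexes I, III, IV and V were below 0. Its 4 genes did not move as one. In mad560 Sdhd (11.50, mean 11.20) and Sdha (12.13, mean 12.01) were above their means, and Sdhb and Sdhc were below. In mad563 Sdha (12.20) and Sdhc (10.59, mean 10.42) were above, Sdhb was below and Sdhd was at 11.21. Complex IV was at 0.00 in mad565, where the others were at 0.10 or 0.11. The dim Cox7c had its lowest value (7.18) in that tumor.

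Counted by gene, 37 of the 74 general subunits had their highest value in mad548, against 16.7% of the other genes in quartile 4. A further 15 were highest in mad562, against 6.55%. The lowest value was in mad553 for 23 of the 74, against 20.9% of the other bright genes, in mad551 for 16 (8.35%) and in mad560 for 11 (3.42%). Part of the rise in mad548 and of the low value in mad553 was therefore shared by bright genes in general. After the average of those genes was subtracted from each array, the general subunits stood highest in mad562 (0.15), mad548 (0.12) and mad565 (0.11). They stood lowest in mad560 (-0.09), mad554 (-0.085) and mad551 (-0.08), with mad550 at -0.07 and mad553 at -0.04. Of the 74, 32 were then highest in mad562, 14 in mad565 and 10 in mad548.

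**Figure D3:**
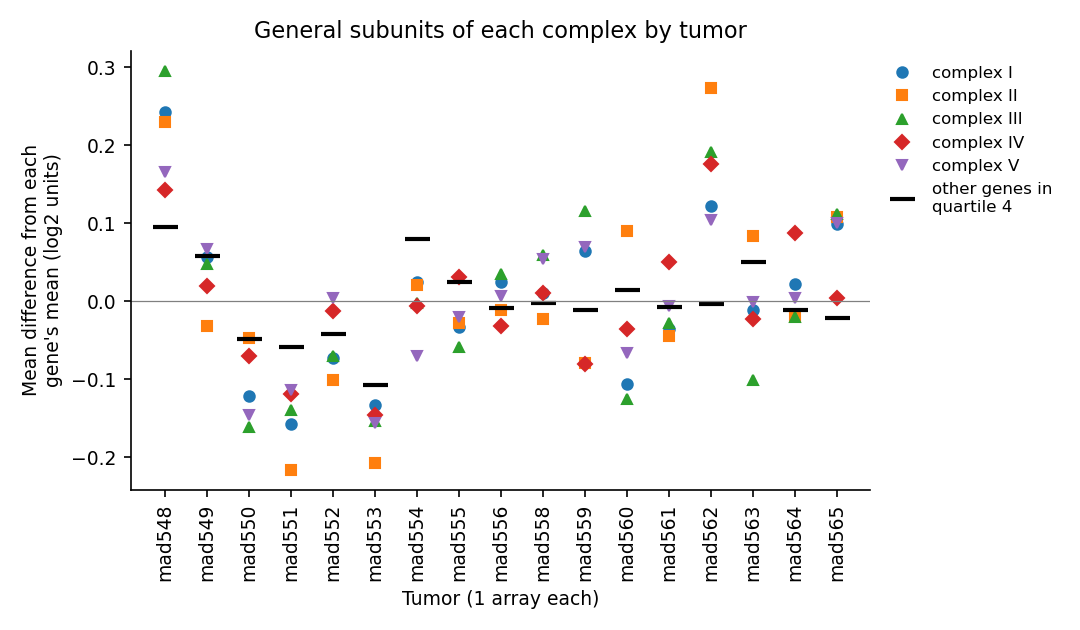
Average difference of the general subunits from their own means in each of the 17 tumors (log2 units), by complex (coloured symbols), with the same average for the 5056 other genes in quartile 4 (black bars). All complexes lie above 0.1 in mad548 and mad562 and below -0.1 in mad551 and mad553.

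Promoter sequences were not used in the choice of the genes by name. NRF1 is a transcription factor known to act on many genes of the respiratory chain, and its palindromic site was searched on both strands as GCGC, any 1 base, then TGCGC. Promoter windows of 250 bases before to 50 after the gene start came from RefSeq (GRCm38.p6) for 74 of the 90 genes. The letters occurred in 15 of 63 general subunits (23.8%), against 8.61% of all 14452 measured genes with a window and 13.3% of those at or above the median value. An ETS-type sequence, CCGGAAG, occurred in 27.0% of the general subunits, 15.0% of all genes and 22.4% of the brighter genes. A match is a description of letters and not a bound site. The stretches below show the NRF1-type match in capitals, 5′ to 3′, for the first gene by name in complexes I, II, IV and V whose match lies wholly before the gene start. In complex III the only match, in Uqcrc1, did not lie wholly before the start.
Ndufa5, chr6:24527687-24527736 (- strand): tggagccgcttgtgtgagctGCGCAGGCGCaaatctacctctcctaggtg
Sdha, chr13:74350309-74350358 (- strand): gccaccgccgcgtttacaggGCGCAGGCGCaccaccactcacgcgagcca
Cox6a1, chr5:115349091-115349140 (- strand): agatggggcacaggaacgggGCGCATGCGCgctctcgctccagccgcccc
Atp5c1, chr2:10080433-10080469 (- strand): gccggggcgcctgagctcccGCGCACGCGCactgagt

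The tissue isoforms of complex IV were mixed: Cox7a1, Cox8b and Cox6a2 varied more than any general subunit, and the other 5 varied less than Atp5g3. None of the 8 lay in quartile 4 throughout. The testis forms stayed low and nearly constant: Cox7b2 ranged from 3.93 to 4.38 (mean quartile 1.0) and Cox6b2 from 5.10 to 5.76 (mean quartile 2.0). The testis form Cox8c ranged from 7.89 to 8.27 on its brightest probeset, whereas its second probeset, with a mean of 5.42, did not reach that range. Cox4i2, the form known from lung and low oxygen, ranged from 5.27 in mad550 to 6.11 in mad548 with a median of 5.65 (mean quartile 2.0). The genes most like Cox4i2 over the 17 tumors were Tcl1b3, Hmbox1, Ccdc186, Setd5 and C77080, with an r of 0.77 to 0.78.

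Cox6a2, the heart and skeletal muscle form of subunit 6a, was highest in the tumors with muscle RNA. It reached 9.76 in mad553, 8.28 in mad550 and 8.16 in mad549, while the other 14 lay between 7.16 and 7.99 (mad555). The margin over these 14 was wide only for mad553. How many of all genes were highest in the same 3 tumors was not counted. The order followed Myh4, a fast myosin heavy chain, with 14.76, 13.20 and 12.92 in these tumors in the same order and 6.13 to 7.86 elsewhere. The second probeset of Cox6a2 ran in parallel (r = 0.85). The general form Cox6a1 moved by only 0.57 between its extremes, so the difference of Cox6a2 from Cox6a1 within an array rose from -6.66 in mad562 to -3.64 in mad553. The genes most like Cox6a2 were Myoz1 (r = 0.93), Eno3 (0.90), Srl (0.87), Acta1 (0.83) and Myh4 (0.81), all known from muscle, and each was highest in mad553. These likenesses rest on the 3 muscle tumors at least for Myh4, where r over the other 14 was -0.00, and with the mean of the muscle list it was 0.39 there. The part of muscle tissue in this pattern was not tested beyond these values.

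Cox7a1 and Cox8b, forms known from heart, skeletal muscle and brown fat, both had their highest value in mad562, a tumor with brown fat RNA. Cox7a1 was at 8.06 in mad562 and 7.80 in mad548, and between 4.46 and 5.95 in the other 15 tumors (median of all 5.03). Cox8b was at 8.05 in mad562, 7.60 in mad553 and 7.48 in mad548, and between 4.54 and 6.02 in the other 14 (median of all 5.32). Outside these tumors both genes were dim, and their mean quartiles were 1.65 and 1.94. Ucp1, the uncoupling protein that defines brown fat, was at 12.76 in mad562 and 12.13 in mad548, and between 6.18 and 9.99 elsewhere. The pair differed in mad553, the tumor of highest muscle list, where Cox8b reached the level of the brown fat tumors and Cox7a1 was at 5.95.

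The difference of Cox7a1 from its general form Cox7a2 ran from -9.19 in mad554 to -5.59 in mad562. Cox7a2 itself differed by only 0.33 between its extremes. For Cox8b and its general form Cox8a the difference ran from -5.96 in mad552 to -2.47 in mad553. The gene most like both was Gpd1, a cytosolic glycerol-3-phosphate dehydrogenase, with an r of 0.94 for Cox7a1 and 0.89 for Cox8b. Ucp1 was among the 5 most alike for both (0.89 and 0.86), as were Scd1 and Acadl. Without mad548 and mad562 the r with Ucp1 was 0.81 for Cox7a1 and 0.69 for Cox8b over 15 tumors. With the mean of the skeletal muscle list it was 0.59 for Cox7a1 and 0.74 for Cox8b over the same 15. With mad549, mad550 and mad553 left out as well (12 tumors), the r with Ucp1 was 0.86 and 0.82. With the muscle list it was then 0.12 and 0.32. The parts of brown fat and muscle RNA in these values were not tested. Cidea, another brown fat marker, was bright in all tumors, from 10.56 to 11.99, and was highest in mad548 and mad562. Ppargc1a, the coactivator known for raising mitochondrial genes in brown fat, was dim throughout (4.60 to 5.96, mean quartile 1.59), with its highest value in mad553 and 5.88 in mad548 and 5.73 in mad562.

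**Figure D4:**
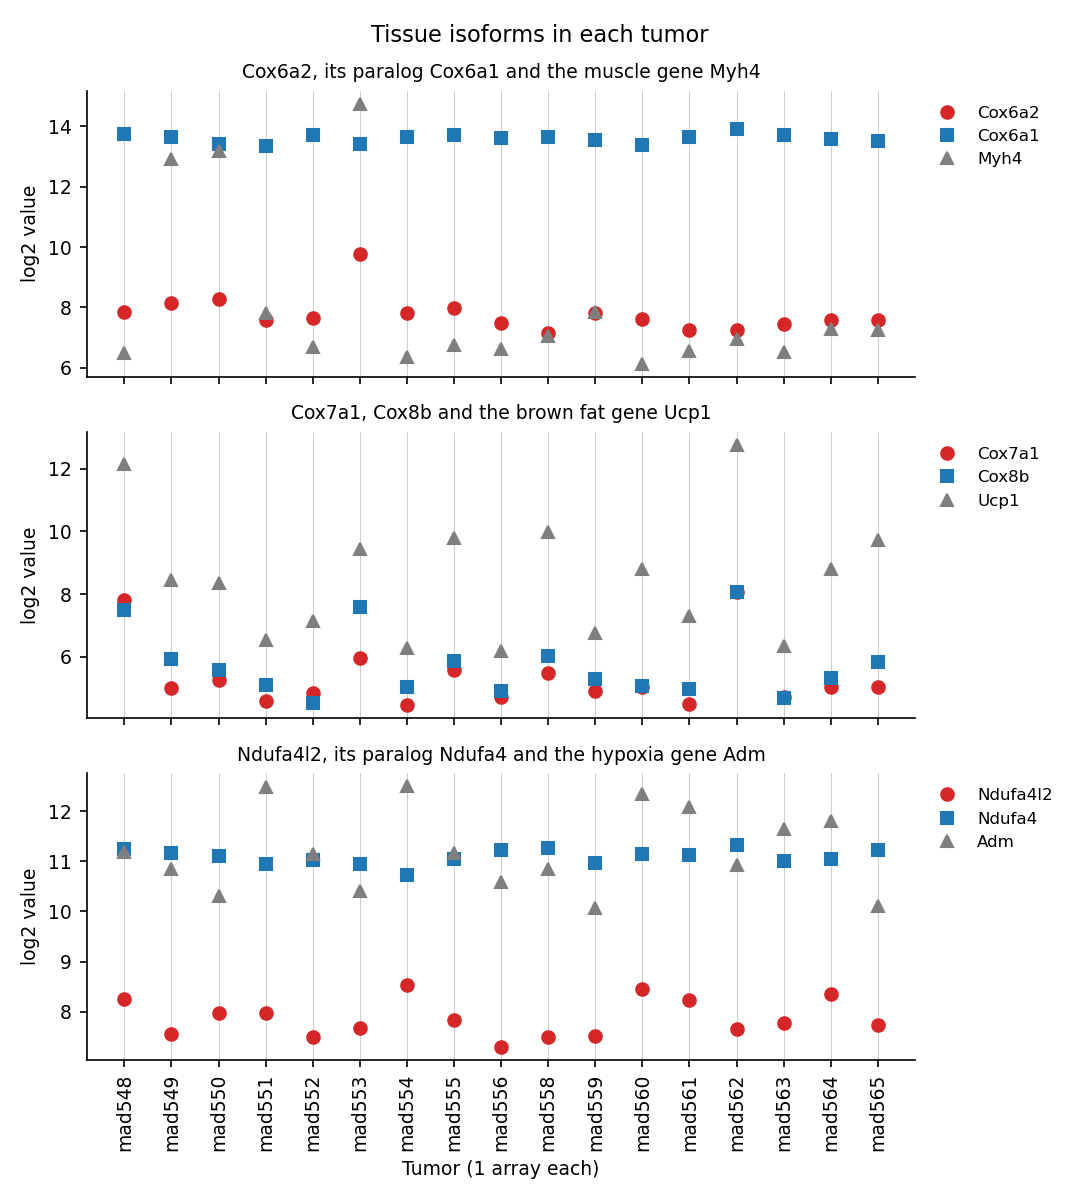
Log2 values in each of the 17 tumors of Cox6a2 with its general form Cox6a1 and Myh4 (top), of Cox7a1 and Cox8b with Ucp1 (middle), and of Ndufa4l2 with Ndufa4 and the hypoxia gene Adm (bottom). Cox6a2 peaks in mad553 with Myh4, and Cox7a1 peaks in mad562 and mad548 with Ucp1. Cox8b is highest in mad562 (8.05), followed by mad553 (7.60, where Ucp1 is at 9.42) and mad548 (7.48).

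The 250 bases before the start of Cox7a1 and of Cox8b are shown because both genes were highest in a tumor with brown fat RNA, while Cox8b alone was also high in mad553. Neither window held the NRF1-type or the ETS-type letters. Capitals mark CAGCTG, an E-box sequence read by muscle-type factors, which occurs once before Cox8b and not before Cox7a1. It was found in 18.8% of all windows and in 7.94% of those of general subunits. Among the 4 tissue isoforms with a window it was found in 1, Cox8b. Any part of this sequence in the values of Cox8b was not tested.
Cox7a1, chr7:30183921-30184170 (+ strand): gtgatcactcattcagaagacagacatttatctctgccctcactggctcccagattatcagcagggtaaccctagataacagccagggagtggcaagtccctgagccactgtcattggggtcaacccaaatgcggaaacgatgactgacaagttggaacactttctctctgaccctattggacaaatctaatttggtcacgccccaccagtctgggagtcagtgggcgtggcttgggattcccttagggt
Cox8b, chr7:140900447-140900696 (- strand): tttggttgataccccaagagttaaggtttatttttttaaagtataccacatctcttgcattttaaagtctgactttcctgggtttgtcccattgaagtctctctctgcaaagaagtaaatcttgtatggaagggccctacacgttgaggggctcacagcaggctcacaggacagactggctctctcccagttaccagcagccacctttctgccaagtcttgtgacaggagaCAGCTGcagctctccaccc

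Ndufa4l2, a paralog of Ndufa4 known as a gene induced by low oxygen, varied over the tumors in another way. It ranged from 7.30 in mad556 to 8.52 in mad554 with a median of 7.77, and the tumors formed a continuous series in which mad560 (8.44), mad564 (8.35), mad548 (8.24) and mad561 (8.23) followed the highest. Ndufa4, first assigned to complex I and now known as a subunit of complex IV, was lowest in mad554 (10.72) and reached 11.34 in mad562. The difference of Ndufa4l2 from Ndufa4 ran from -3.93 to -2.20. The genes most like Ndufa4l2 were Smpd1 (r = 0.87), Slc2a13 (0.86), Chga (0.86), Galnt6 (0.85) and Srp72 (0.84), each highest in mad554. Chga encodes the granule protein chromogranin A of neuroendocrine cells, and it ranged from 11.94 to 13.51. It belongs to the neuroblast list, whose mean had an r of 0.73 with Ndufa4l2 over the 17 tumors, given as a description.

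Which of the 90 genes follow other features of the tumors was asked with limma. Each gene's log2 value was fitted on the mean of a gene list over the 17 tumors, for all genes at once, with the Benjamini-Hochberg adjustment over all genes and a threshold of 0.05. The lists stood for low oxygen, fat cells, cell division, MYC targets and pericytes. Slopes are log2 units of the gene per log2 unit of the list mean.

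On the list of 15 hypoxia response genes (among them Adm and Egln3) 1 of 90 passed, against 0.457% of all genes, and this was Ndufa4l2. Its slope was 0.96 (SE 0.18, adjusted p = 0.021 by limma). The list mean ran from 8.90 in mad558 to 9.90 in mad554. All 5 tumors of highest list mean had Ndufa4l2 at 7.97 or above, but this level did not set them apart. It was also reached in mad548 (8.24), whose list mean was the median, and in mad550 (7.97), whose list mean was below the median. As a description of a pair that the fit had singled out, Pearson's r was 0.80 and Spearman's rho 0.78 over 17 tumors, and r was 0.72 without mad554 and mad561, the tumors farthest from the list's median. In the limma fit the adjusted p rose above the threshold when mad554 (0.17), mad558 (0.0515), mad559 (0.0513) or mad560 (0.0795) was left out. Cox4i2 had a slope of 0.30 (SE 0.18, adjusted p = 0.59). At an unadjusted p under 0.05 only Ndufa4l2 was higher with the list, against 8.54% of all genes. In the other direction 4 genes were lower, namely Ndufb10, Uqcr10, Atp5g3 and Ndufa5, against 1.8%.

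On the list of 10 fat cell genes (among them Lpl and Fabp4) 1 of 90 passed, against 0.297% of all genes, and this was Cox7a1. Its slope was 1.04 (SE 0.20, adjusted p = 0.0196 by limma), and that of Cox8b 0.95 (SE 0.22, adjusted p = 0.098). Pearson's r of Cox7a1, again as a description, was 0.78 and rho 0.64. Without mad548 and mad562 r was 0.35, so the relation rests on those tumors, and the adjusted p of the slope was 0.22 without mad548 and 0.18 without mad562. With the brown fat list in place of the fat list both Cox7a1 and Cox8b passed. Tumor mad556 had a fat list mean of 8.35 with Cox7a1 at 4.71 and Ucp1 at 6.18, so fat markers without Ucp1 did not go with Cox7a1 there.

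The general subunits leaned the same way without passing. At an unadjusted p under 0.05, 43 of the 90 genes were higher with the fat list, against 5.51% of all genes, and 39 of them were general subunits, 19 of complex I and 7 of complex III. Ndufs8, an iron-sulfur subunit, and Atp5k, a small subunit of complex V, had the lowest p after Cox7a1 and Cox8b. Only Cox6b2 was lower, against 2.71% of all genes. Without mad548 and mad562 only 6 of the 90 had an unadjusted p under 0.05 in either direction, against 7.37% of all genes. The lean therefore rests on these tumors.

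On the list of 22 cell division genes (among them Mki67 and Pcna) 1 of 90 passed, against 0.958% of all genes. This was Ndufs4, with a slope of 1.42 (SE 0.31, adjusted p = 0.033 by limma). As a description, Pearson's r was 0.77 and rho 0.66, and r was 0.48 without mad553 and mad554. The lowest tumor on both axes was mad553, the one of highest muscle list, and without it the adjusted p of the slope was 0.39. It was 0.0506 without mad550, 0.0574 without mad556 and 0.0659 without mad558. The second probeset of Ndufs4 followed the first with an r of 0.36, and with the mean of its 4 probesets the slope was 0.45 (adjusted p = 0.53). At an unadjusted p under 0.05, 29 genes were higher with the list, against 8.06% of all genes, and among these were 6 of the 8 assembly factors. The 2 that were lower, Cox6a2 and Cox4i1, stood against 4.44%. Without the 3 tumors with muscle RNA, 9 of the 90 had an unadjusted p under 0.05, against 11.7% of all genes, and no gene of the array passed by limma.

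**Figure D5:**
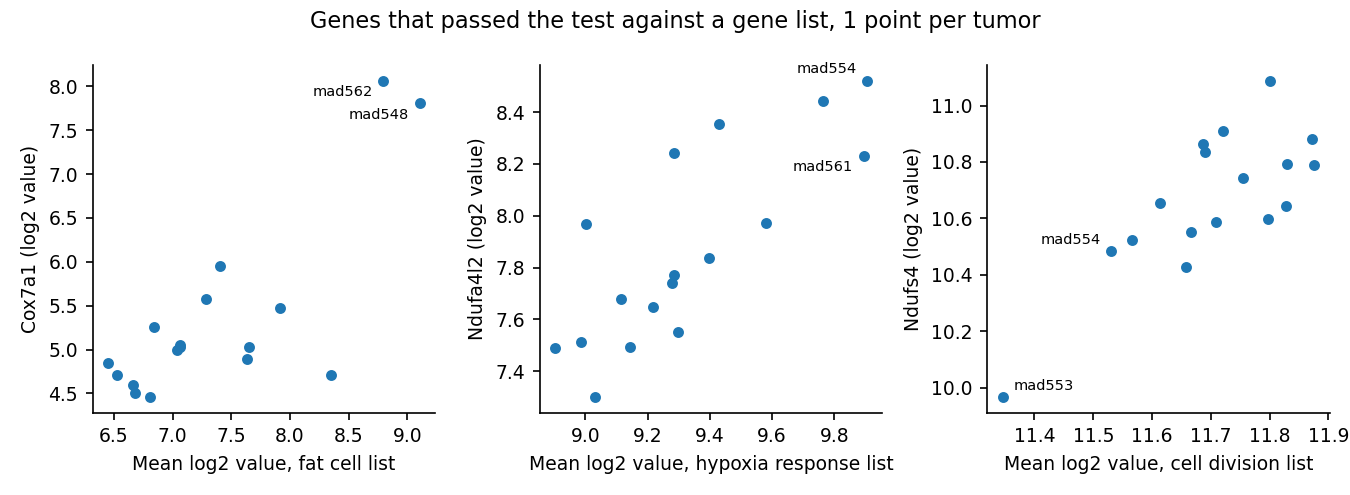
Log2 values of Cox7a1, Ndufa4l2 and Ndufs4 against the mean log2 value of the fat cell, hypoxia response and cell division lists, 1 point per tumor (17 in each panel), with the tumors farthest from each list's median named. Cox7a1 rises in mad548 and mad562, Ndufs4 falls in mad553, and Ndufa4l2 forms a continuous series.

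On the list of 17 MYC target genes (among them Npm1 and Hspd1) none of the 90 passed by limma, and neither did any of all genes (0.0%). The number of genes with an unadjusted p under 0.05 was 46 of 90, all higher with the list, against 12.1% of all genes in that direction and 1.6% in the other. General subunits made up 42 of them, with 23 of the 34 of complex I, 7 of the 8 of complex III, 6 of complex V, 5 of complex IV and 1 of complex II. The median slope was 0.65 for the 90 genes and 0.28 for all genes. Ndufs5 had the lowest p, with a slope of 1.86 (SE 0.33, adjusted p = 0.068). Without mad548 and mad562 the number fell to 17, against 8.84% of all genes in either direction, and the median slopes were 0.52 and 0.23. The list mean was itself highest in mad548 (12.71) and lowest in mad553 (12.27).

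On the list of 11 pericyte genes (among them Rgs5 and Pdgfrb) none of the 90 passed by limma, against 0.231% of all genes. At an unadjusted p under 0.05, 10 were lower with the list, against 7.47% of all genes, and 2 were higher, Cox6a2 and Cox4i1, against 6.23%. Ndufs4 was the nearest to passing (slope -0.57, SE 0.14, adjusted p = 0.078). Without mad548 and mad562, or without mad562 alone, Ndufs4 passed. The list includes Des, which muscle also expresses and which was at 10.35 in mad553.

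Other genes of the pathway were tested in the same fits. Of 42 measured factors that assemble complexes and lie outside the 90, 2 passed with the cell division list by limma (Surf1 and Nubpl, both higher), against 0.958% of all genes, and none with the other lists. At an unadjusted p under 0.05, 24 of the 42 were higher with the MYC target list (12.1% of all genes), 13 with the cell division list (8.06%) and 7 with the fat list (5.51%), while 7 were lower with the pericyte list (7.47%). Over the 10 measured carriers and partners, such as the cytochromes Cycs and Cyc1 and the ADP/ATP carriers Slc25a4 and Slc25a5, none passed by limma, and 4 had an unadjusted p under 0.05 with the MYC target list, all higher. None of 12 regulators of mitochondrial genes passed with any list by limma, and at most 2 had an unadjusted p under 0.05 with a list. Tfam, which packages and transcribes mitochondrial DNA, ranged from 10.36 to 10.90, and Esrra, a nuclear receptor of mitochondrial genes, from 8.49 to 9.10.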

How the data were processed

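Total RNA of 17 tumors was labelled by the 2-cycle method and hybridized to Affymetrix whole-genome mouse arrays. The authors deposited 1 log2 value per probeset and tumor, computed by RMA, and the submitters' processing notes also name Partek 6.4. The study's methods name MAS5 instead, but the values (3.28 to 15.59) are on a log2 scale. RMA gives all arrays nearly the same distribution (medians 6.28 to 6.51), so a value is relative to its array. The number of arrays limits the precision. A hybridization without replicate arrays cannot separate technical spread from that between tumors, so p-values set a slope against both kinds of spread together. The mean 3' minus 5' difference of the control probesets was 1.89 to 2.37.

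Of 45101 probesets 34945 carried 1 symbol in the platform annotation and 932 several, and 64 were controls. Slopes were fitted with limma 3.58.1 (R 4.3.3), leaving out genes of the list. Correlations are given as descriptions, without p-values. Those of called genes with their list restate pairs that the fit had called. Promoters and gene order came from RefSeq tables. In simulated data with 18193 genes drawn independently, a slope of 2 gene SDs was recovered for 100 of 100 genes with each list. One of 1 SD was recovered for 36 to 47, and 3 to 10 unchanged genes were called. Real genes vary together, so these rates check the fit and do not give its power in these data. The genes and lists were chosen with earlier results of these data known.

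Genes were named by rule: paralog isoforms, the Sdh genes, the 2 highest and 2 lowest SDs and the extreme quartiles of each complex, called genes, the brightest marker genes, and the 5 genes most like an isoform. Other genes were named after their values were seen. Tables were read with pandas 2.3.3, correlations were computed in NumPy 2.4.6 and SciPy 1.17.1 under Python 3.11.15, and plots were drawn with Matplotlib 3.10.9.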

Additional observations from a re-analysis of the deposited data

How the results depend on the processing

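The number of the 90 genes in the highest quartile lay between 51 (of 72 measured, without probesets that match several transcripts) and 78 under the alternatives. The number with an SD of 0.5 or more was 2 or 3, but 1 with the median absolute deviation. Over all genes it was 867 to 1294 (1236 in the main setting), and 704 with the median absolute deviation. Leaving out 1 tumor at a time gave 76 to 77 and 2 to 3, against 6114 to 6129 and 981 to 1294 of all genes.

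The number that passed on the cell division list (1) was 0 with the mean of all probesets, the list's median or ranks of the list, and 0 without mad549, mad550 and mad553. It was 2 without probesets matching several transcripts and 3 with the control difference as covariate. It was 4 of 82 among genes at or above the median and 12 with centred arrays. Over all genes 174 of 18171 passed in the fit above, and in these settings 123 of 16572, 212, 263 of 9075 and 693. Without 1 tumor the number among the 90 was 0 to 3, and 0 to 223 over all genes. It was 2 without mad549 or mad561 and 3 without mad560 or mad563. On the MYC target list (0) it was 1 with the mean of all probesets, without the shared probesets and among brighter genes, 2 with centred arrays and 5 with the list's median, and 0 to 2 without 1 tumor (2 without mad552, 1 without mad563). Ndufs5 was among the genes in each of these. Over all genes the counts were 0 in the fit above and 16, 9, 38 (of 9080), 148 and 59 in these settings. They were 46 without mad552 and 18 without mad563.

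On the hypoxia list (1) it was 0 with centred arrays or ranks, and 0 to 1 without 1 tumor. Over all genes 83 passed in the fit above, 44 with centred arrays and 45 with ranks. On the fat list (1) it was 0 with the list's median, with ranks and with the brown fat list as covariate. It was also 0 without mad562, and without mad548 and mad562. Over all genes 54 passed in the fit above, and 16, 17, 10, 32 and 6 in these settings. Among brighter genes it was 0, but Cox7a1 (mean 5.35) lay below the median and was not tested there. The number was 2 (Cox7a1 and Cox8b) without mad549, mad550 and mad553 and with the brown fat list instead (50 and 108 of all genes). Without 1 tumor it was 0 to 2, with 2 without mad553 or mad556 (58 and 91 of all genes). On the pericyte list (0) it was 1 with the mean of all probesets, among brighter genes, without mad562 and without mad548 and mad562. It was 0 to 1 without 1 tumor. Over all genes 42 passed in the fit above, and 25, 118 (of 9090), 145 and 165 in the named settings.

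The slopes of Cox7a1, Ndufa4l2 and Ndufs4 kept their sign under every alternative in which the gene was tested. The settings that leave out mad548 and mad562 together and those with the brown fat list were chosen after seeing the data. What makes a setting change a count was not tested. No paired analysis was possible because all arrays belong to 1 group. Probesets near the lowest values of an array, such as those of Cox7b2 and Ndufb4, carry little information on differences.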
